A study of Homo sapiens with 2 samples.

Results

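Cells move, evict and restructure nucleosomes with multi-subunit machines built around ATPases of the Snf2 family. The RNA levels of 56 genes for these machines and for related bromodomain and ARID proteins were compared between a human breast cell line transfected against YBX1 and the same line transfected with a control labelled siNC. The genes were chosen by symbol: the SMARCA to SMARCE, ARID1 to ARID5, CHD, INO80, BRD and BAZ families, plus ACTL6A, PBRM1, DPF2, ATRX, BPTF, RUVBL1, RUVBL2, MTA1, MTA2, MBD2 and MBD3. They are 56 of the 13219 genes listed in either library, and all 56 were listed in both. Another 17 symbols of the same pattern in the gene name table, among them CHD5, ARID3C and the read-through gene INO80B-WBP1, were not analysed here.

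The siYBX1 cells received a YBX1 silencing reagent, described as SIRNA in a label and as Smart Silencer in the series design, and the siNC cells its control. Both groups share the line, called 231 in the labels, and growth in L15 medium with serum, and both were taken 48 h after transfection. The name 231 is in common use for MDA-MB-231, a mesenchymal-like breast cancer line, but the labels do not spell it out. Each group is 1 library, so no difference below has a replicate check, no p-value is given, and the values describe this pair of libraries.

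The values were FPKM, fragment numbers relative to transcript length and library size, deposited without counts, and the sequencing depth behind them is unknown. The siYBX1 library listed 11678 genes and the siNC library 13017 genes. Of these, 202 were listed with siYBX1 alone and 1541 with siNC alone. The summed FPKM was 222872 with siYBX1 and 201233 with siNC. The source of this imbalance was not tested. YBX1 (ENSG00000065978.18_3), the gene targeted, had 38.1 FPKM in siYBX1 cells against 649 FPKM in siNC cells, 17.0-fold less. The mesenchymal markers VIM, CD44, AXL and CAV1 were high in both libraries, with a summed 732 FPKM in siYBX1 cells and 539 FPKM in siNC cells, and neither of the leukocyte markers PTPRC and CD3E was listed in either. The luminal markers ESR1 and PGR were listed in neither, and KRT19 stood at 83.0 FPKM with siYBX1 against 153 FPKM with siNC. The luminal marker GATA3 was at 2.14 FPKM with siYBX1 against 2.34 FPKM with siNC. Of the epithelial markers, EPCAM was at 5.10 FPKM with siYBX1 against 8.22 FPKM with siNC, and CDH1 was listed with siNC alone (0.0668 FPKM). Of 6 hepatocyte markers, 1 had a value in siYBX1 cells and 5 did in siNC cells, with sums of 39.96 FPKM in siYBX1 cells and 42.6 FPKM in siNC cells. These near-equal sums hide markers that went opposite ways. SERPINA1 made up the whole of the siYBX1 sum and was lower in siNC cells, at 17.0 FPKM. ALB (10.4 FPKM), FGB (12.04 FPKM), APOB (2.26 FPKM) and APOA1 (0.940 FPKM) had a value in siNC cells alone, and TTR in neither. The part of these markers in the results below was not tested. In such bulk RNA, fewer cells with a transcript and less of it per cell cannot be told apart.

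As background, the SWI/SNF or BAF complexes slide and eject nucleosomes at enhancers and promoters, and their subunit genes are often mutated in cancer. ISWI complexes space nucleosomes, and INO80 positions nucleosomes near promoters and replication forks. The CHD family includes the ATPases of the NuRD complex, which joins remodelling to histone deacetylation. Bromodomains read acetylated lysines on histones, and BET proteins such as BRD2 and BRD3 use them to bring the elongation machinery to active genes. YBX1 encodes YB-1, a cold shock domain protein that binds mRNA and was named for binding the Y-box, an inverted CCAAT sequence in promoters.

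Most of the remodelling genes had a lower level in siYBX1 cells than in siNC cells. Differences are log2(FPKM + 1) of the siYBX1 minus the siNC cells, computed where the mean level was 1 FPKM or more. That left 55 of the 56 genes and 10548 genes in all. The 55 genes had a median level of 7.33 FPKM in siYBX1 cells and 11.1 FPKM in siNC cells. Over all compared genes the median levels were 6.92 FPKM in siYBX1 cells and 6.74 FPKM in siNC cells. The median difference of the remodelling genes was -0.47, beside 0.02 for all compared genes, and 48 of 55 lay below 0, where 49.0% of all genes did.

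At a 2-fold difference on this scale, 7 of the 55 genes were lower and 1 was higher. Of all compared genes 5.62% were lower and 7.20% higher by that measure. At 1.5-fold, 24 of the 55 were lower and 1 higher, beside 16.2% and 18.3% of all genes. The 7 lower genes were BPTF, BAZ1B, ARID4A, ARID4B, SMARCA1, ARID1A and SMARCA4, and the higher gene was ARID3A. Several lay close to the 2-fold line: SMARCA4 and ARID1A were just past it, both at -1.01, and MBD2 was just short of it at -0.98. Once the summed FPKM was made equal, 566 of all genes were higher and 826 lower, against 759 and 593 as deposited. That scaling took the median of all genes to -0.11 and that of the remodelling genes to -0.60.

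**Figure D1:**
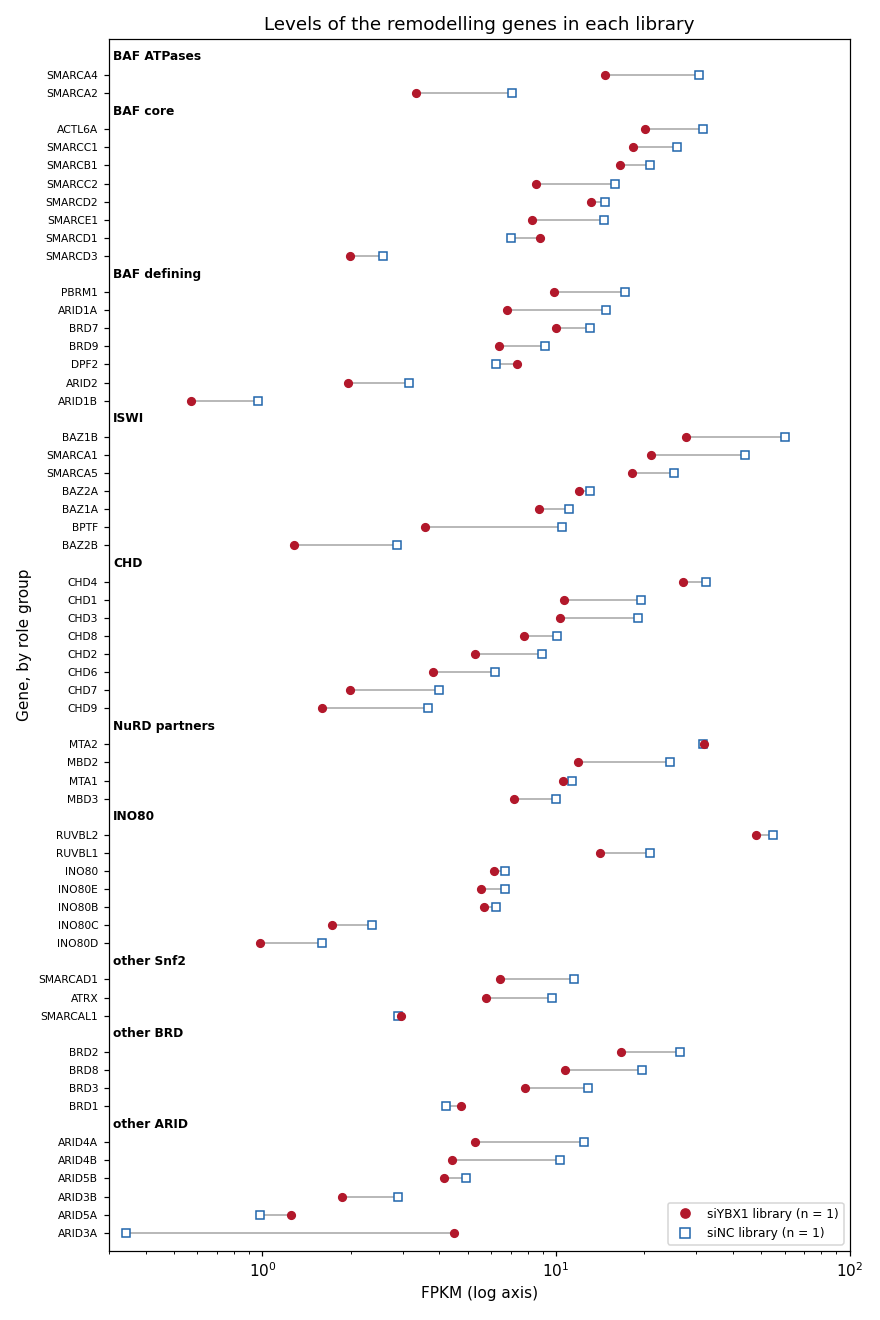
Level of each of the 56 remodelling genes in FPKM on a log axis, with the siYBX1 library as filled red circles and the siNC library as open blue squares, 1 library each, grouped by role. The circle lies left of the square for most genes, by the widest margin for BPTF (3.58 FPKM with siYBX1 against 10.5 FPKM with siNC), and far to the right for ARID3A (4.51 FPKM with siYBX1 against 0.342 FPKM with siNC).

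Promoter windows are shown for 3 of the lower genes because YB-1 was named for a promoter sequence. The windows hold the 250 bases before the start site, from RefSeq on GRCh38.p14, and 45 of the 56 genes matched the table by symbol. They are written 5′ to 3′ on the gene's strand, with every CCAAT, or ATTGG for the other strand, in capitals. Of the 7 lower genes, 6 matched, with 7 windows. CCAAT was in 2 of those windows (28.6%), beside 33.3% of the windows of compared genes. Shown are both windows that hold it and, for contrast, 1 that does not. ARID4A has 6 matches, BAZ1B has 2 and ARID1A has 0:
ARID4A (chr14:58298305-58298554, plus strand): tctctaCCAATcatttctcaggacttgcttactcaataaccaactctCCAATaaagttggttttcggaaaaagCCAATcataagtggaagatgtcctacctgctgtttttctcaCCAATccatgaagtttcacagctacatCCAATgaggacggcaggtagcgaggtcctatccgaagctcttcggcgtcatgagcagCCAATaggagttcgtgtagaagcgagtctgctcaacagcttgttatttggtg
BAZ1B (chr7:73522294-73522543, minus strand): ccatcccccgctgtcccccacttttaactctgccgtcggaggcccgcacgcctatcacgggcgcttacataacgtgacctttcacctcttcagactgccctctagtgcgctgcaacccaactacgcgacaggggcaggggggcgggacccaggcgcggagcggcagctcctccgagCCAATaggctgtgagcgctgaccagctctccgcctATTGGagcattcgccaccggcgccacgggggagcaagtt
ARID1A (chr1:26695765-26696014, plus strand): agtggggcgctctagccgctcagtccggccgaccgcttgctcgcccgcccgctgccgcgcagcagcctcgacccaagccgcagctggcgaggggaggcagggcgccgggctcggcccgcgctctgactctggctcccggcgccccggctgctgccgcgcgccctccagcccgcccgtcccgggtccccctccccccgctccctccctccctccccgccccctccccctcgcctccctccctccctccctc
The 6 in ARID4A all face forward, beginning 244, 203, 177, 136, 109 and 52 bases before the start site. Those of BAZ1B face each other, at 74 bases forward and 39 bases reversed. Some genes have several start sites, each with a window. CCAAT on either strand was found in 25.3% of 75 windows of remodelling genes, in 33.3% of 12232 windows of compared genes and in 32.01% of all 35116 windows. The GC box GGGCGG, on either strand, was found in 57.3% of the remodelling windows and 65.4% of those of compared genes. TATAAA, on either strand, was in 3 of the 75 remodelling windows and in 5.35% of those of compared genes. Overlapping matches were each accepted, and these matches are letters in a window, not measured binding.

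On the log2(FPKM + 1) scale both ATPases that drive the BAF complexes lay below 0, SMARCA4 past 2-fold and SMARCA2 short of it. By the plain ratio both passed 2-fold, SMARCA4 at 2.08-fold and SMARCA2 at 2.12-fold lower. SMARCA4 (ENSG00000127616.17_3), which encodes the ATPase BRG1, was listed at 14.7 FPKM in siYBX1 cells and 30.6 FPKM in siNC cells, a difference of -1.01. Its paralog SMARCA2, which encodes BRM, stood at 3.33 FPKM with siYBX1 against 7.06 FPKM with siNC, a difference of -0.89. A BAF complex holds either of these ATPases, and the level of SMARCA4 relative to SMARCA2 was 4.41 in siYBX1 cells and 4.34 in siNC cells.

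The core subunits, which build the body of the BAF complex, differed less, and none of the 8 reached 2-fold. Their median difference was -0.39. The scaffold genes SMARCC2 and SMARCC1 stood at 8.57 FPKM with siYBX1 against 15.9 FPKM with siNC (-0.82) and at 18.3 FPKM with siYBX1 against 25.7 FPKM with siNC (-0.47). SMARCE1, the DNA-binding HMG-box subunit, was at 8.26 FPKM with siYBX1 against 14.5 FPKM with siNC (-0.74), and the actin-related ACTL6A at 20.1 FPKM with siYBX1 against 31.6 FPKM with siNC (-0.63). SMARCE1 has processed pseudogenes, so reads may have been divided between copies. SMARCB1, the subunit lost in rhabdoid tumours, was closer to even, at 16.5 FPKM with siYBX1 against 20.9 FPKM with siNC (-0.32). The SMARCD genes, which encode alternative versions of the same subunit, went apart. SMARCD1 was at 8.79 FPKM with siYBX1 against 7.001 FPKM with siNC (0.29), SMARCD2 at 13.1 FPKM with siYBX1 against 14.7 FPKM with siNC (-0.15) and SMARCD3 at 1.99 FPKM with siYBX1 against 2.57 FPKM with siNC (-0.26).

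Subunits that mark the separate BAF assemblies ranged widely. ARID1A (ENSG00000117713.18_3), the DNA-binding subunit of canonical BAF and a frequently mutated tumour suppressor, was at 6.81 FPKM in siYBX1 cells and 14.8 FPKM in siNC cells (-1.01). Its alternative ARID1B was low in both, at 0.571 FPKM with siYBX1 against 0.968 FPKM with siNC, and was not compared because its mean was under 1 FPKM. DPF2, the reader of modified histone H3 in canonical BAF, stood slightly the other way, at 7.33 FPKM with siYBX1 against 6.24 FPKM with siNC (0.20). All 3 PBAF genes lay below 0, none by 2-fold: PBRM1, with its row of bromodomains, at 9.81 FPKM with siYBX1 against 17.2 FPKM with siNC (-0.75), ARID2 at 1.95 FPKM with siYBX1 against 3.15 FPKM with siNC (-0.49) and BRD7 at 10.0 FPKM with siYBX1 against 13.1 FPKM with siNC (-0.35). BRD9, which belongs to the non-canonical BAF complex, was at 6.39 FPKM with siYBX1 against 9.20 FPKM with siNC (-0.46).

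Of the 7 lower genes, 3 belonged to the ISWI group, whose 7 genes were all below 0 with a median of -0.77. BPTF (ENSG00000171634.16_4), the large subunit of NURF that reads trimethylated histone H3, was listed at 3.58 FPKM in siYBX1 cells and 10.5 FPKM in siNC cells, 2.92-fold lower by the plain ratio and -1.32 on the log2 scale. That placed it at rank 224 from the lowest among 10548 genes, the widest negative difference of the 55. BAZ1B (ENSG00000009954.10_2), the WSTF kinase of the WICH complex, had the highest siNC level of all the remodelling genes, at 27.6 FPKM with siYBX1 against 60.1 FPKM with siNC (-1.09). SMARCA1, the ATPase SNF2L, was at 21.1 FPKM with siYBX1 against 43.9 FPKM with siNC (-1.02). The other ISWI ATPase, SNF2H, is encoded by SMARCA5 and stood at 18.1 FPKM with siYBX1 against 25.2 FPKM with siNC (-0.45). BAZ2B was at 1.28 FPKM with siYBX1 against 2.88 FPKM with siNC (-0.77), 2.25-fold lower by the plain ratio. The remaining partners were nearer to even, BAZ1A of the ACF complex at 8.73 FPKM with siYBX1 against 11.1 FPKM with siNC (-0.31) and BAZ2A of the nucleolar NoRC complex at 11.99 FPKM with siYBX1 against 13.1 FPKM with siNC (-0.12).

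All 8 CHD genes lay below 0, with a median of -0.70, and none reached 2-fold on the log2(FPKM + 1) scale. CHD4 (ENSG00000111642.14_2), the main ATPase of NuRD, was the least different, at 27.1 FPKM in siYBX1 cells and 32.5 FPKM in siNC cells (-0.25). CHD3, the other NuRD ATPase, was at 10.3 FPKM with siYBX1 against 19.0 FPKM with siNC (-0.82). CHD1, which binds trimethylated histone H3 at active promoters, was at 10.6 FPKM with siYBX1 against 19.5 FPKM with siNC (-0.81) and its relative CHD2 at 5.28 FPKM with siYBX1 against 8.93 FPKM with siNC (-0.66). The scale understates low genes: by the plain ratio CHD9 was 2.31-fold and CHD7 2.01-fold lower. CHD9 was at 1.59 FPKM with siYBX1 against 3.67 FPKM with siNC (-0.85) and CHD7, mutated in CHARGE syndrome, at 1.99 FPKM with siYBX1 against 4.004 FPKM with siNC (-0.74). CHD6 was at 3.81 FPKM with siYBX1 against 6.18 FPKM with siNC (-0.58) and CHD8, linked to autism, at 7.80 FPKM with siYBX1 against 10.0 FPKM with siNC (-0.33). CHD transcripts are long. Measured from the median of all compared genes of similar transcript length, the CHD genes lay between -0.70 (CHD3) and -0.10 (CHD8). The median of that measure was -0.39 over all 55 compared remodelling genes.

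The NuRD partners ranged from -0.98 to 0.01. MBD2, which binds methylated DNA, was at 11.9 FPKM in siYBX1 cells and 24.4 FPKM in siNC cells (-0.98), 2.06-fold lower by the plain ratio. MBD3 was at 7.21 FPKM with siYBX1 against 9.98 FPKM with siNC (-0.42). MBD2 and MBD3 occupy the same place in NuRD, and the level of MBD2 over MBD3 was 1.64 in siYBX1 cells and 2.45 in siNC cells. The scaffold genes were nearly level between the libraries, MTA1 at 10.6 FPKM with siYBX1 against 11.3 FPKM with siNC (-0.09) and MTA2 at 31.8 FPKM with siYBX1 against 31.5 FPKM with siNC (0.01). MBD3 overlaps the gene AC005943.1 on the same strand in GENCODE 29, so its value is uncertain.

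The INO80 group had the median nearest to 0 of the role groups, before transcript length was considered. All 7 genes lay below 0, between -0.53 and -0.11, with a median of -0.23, and none passed 1.5-fold on this scale. Measured from the median of all compared genes of similar transcript length, RUVBL1 lay at -0.64, and INO80B and INO80E both at -0.34. INO80C lay at -0.32, RUVBL2 at -0.30, INO80D at -0.16 and INO80 at 0.01 by that measure. Over the 55 remodelling genes the median of that measure was -0.39. The ATPase INO80 was at 6.16 FPKM in siYBX1 cells and 6.72 FPKM in siNC cells (-0.11). The AAA+ ATPases RUVBL1 and RUVBL2, which form a ring shared with the SRCAP and TIP60 complexes, were at 14.1 FPKM with siYBX1 against 20.8 FPKM with siNC (-0.53) and at 47.8 FPKM with siYBX1 against 54.9 FPKM with siNC (-0.20). The auxiliary subunits INO80B, INO80C, INO80D and INO80E differed by between -0.39 and -0.12, at 0.982 to 5.67 FPKM in siYBX1 cells and 1.59 to 6.70 FPKM in siNC cells. INO80C overlaps AC007998.2 on the same strand, and that gene was listed at 0.190 FPKM with siYBX1 against 2.50 FPKM with siNC, so the INO80C value is uncertain.

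SMARCAD1, ATRX and SMARCAL1 are Snf2 ATPases that work outside these complexes. SMARCAD1, which restores silent chromatin after replication, was at 6.43 FPKM with siYBX1 against 11.5 FPKM with siNC (-0.75), and ATRX, which deposits histone H3.3 at repeats, at 5.76 FPKM with siYBX1 against 9.65 FPKM with siNC (-0.66). SMARCAL1, which remodels stalled replication forks, did not go with them, at 2.96 FPKM with siYBX1 against 2.89 FPKM with siNC (0.03).

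The remaining bromodomain genes had a median difference of -0.65 over 4 genes, and none reached 2-fold. The BET genes BRD2 and BRD3 lay below 0 by nearly the same difference, BRD2 at 16.6 FPKM with siYBX1 against 26.5 FPKM with siNC (-0.64) and BRD3 at 7.87 FPKM with siYBX1 against 12.9 FPKM with siNC (-0.65). BRD8, of the TIP60 complex, was at 10.8 FPKM with siYBX1 against 19.7 FPKM with siNC (-0.81), and BRD1, of the MOZ and HBO1 acetyltransferase complexes, at 4.76 FPKM with siYBX1 against 4.21 FPKM with siNC (0.14).

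The remaining ARID genes, which encode DNA-binding proteins outside BAF, held the sole gene that was at least 2-fold higher. ARID3A (ENSG00000116017.6), a transcription factor known as Bright in B cells, had 4.51 FPKM in siYBX1 cells and 0.342 FPKM in siNC cells, 13.2-fold higher and a difference of 2.04. It passed the filter on low values through the siYBX1 library alone, so its presence in the comparison rests on that level. Its paralog ARID3B stood the other way, at 1.86 FPKM with siYBX1 against 2.89 FPKM with siNC (-0.44). ARID4A and ARID4B, which encode paired subunits of the SIN3A deacetylase complex, were lower alike. ARID4A was at 5.28 FPKM with siYBX1 against 12.4 FPKM with siNC (-1.09) and ARID4B at 4.43 FPKM with siYBX1 against 10.3 FPKM with siNC (-1.05). ARID4B overlaps RBM34 on the same strand, listed at 15.3 FPKM with siYBX1 against 27.9 FPKM with siNC, so its value is uncertain. Genes that overlap on the opposite strand can also exchange reads where strand is not used, which touches SMARCC2, PBRM1, CHD3, BRD2, BRD3, BRD8, ACTL6A and RUVBL1 among others in GENCODE 29. ARID5A, known in mouse to stabilise Il6 mRNA, was at 1.25 FPKM with siYBX1 against 0.982 FPKM with siNC (0.18), and ARID5B at 4.16 FPKM with siYBX1 against 4.91 FPKM with siNC (-0.20).

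**Figure D2:**
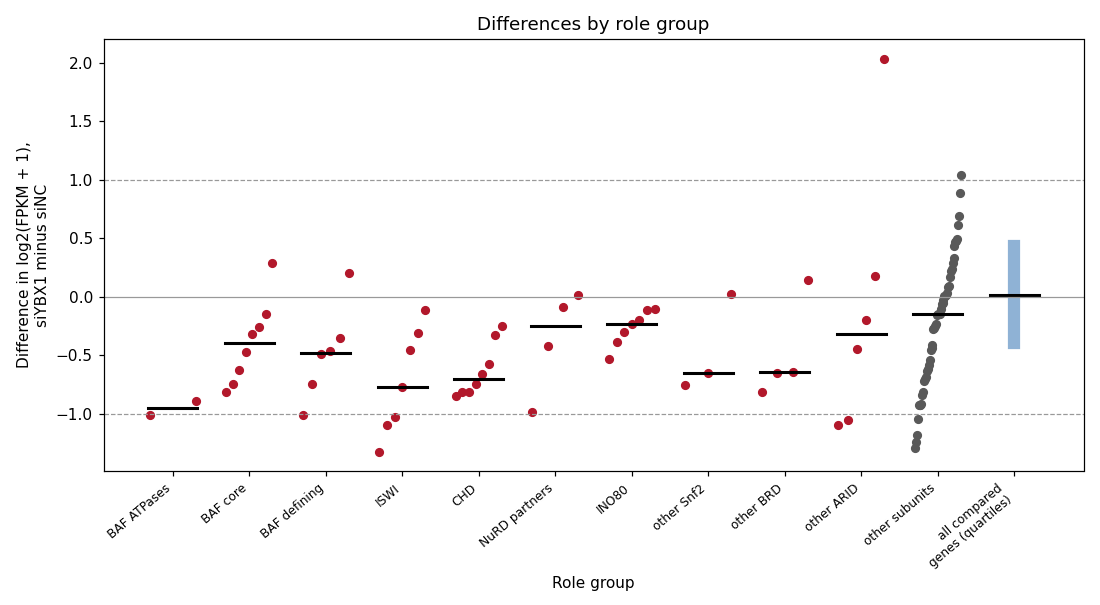
Difference in log2(FPKM + 1), siYBX1 minus siNC, for each compared remodelling gene by role group (red points), for the other subunits of the same complexes (grey points) and for all compared genes (blue bar from the lower to the upper quartile). Black lines are medians, from -0.95 for the BAF ATPases to -0.23 for INO80, beside -0.15 for the other subunits and 0.02 for all genes, and dashed lines mark 2-fold.

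Within pairs of paralogs that can take the same place in a complex, or partners that work together, the gene with the higher level was the same in both libraries for all 9 pairs. The pair of ARID1A and ARID1B was included although ARID1B had a mean under 1 FPKM, so its ratio rests on low values. The ratio of CHD4 to CHD3 was 2.63 in siYBX1 cells and 1.71 in siNC cells. That of SMARCA5 to SMARCA1 was 0.859 in siYBX1 cells and 0.573 in siNC cells, and that of SMARCC1 to SMARCC2 was 2.14 in siYBX1 cells and 1.62 in siNC cells. The widest difference of a ratio was that of CHD4 to CHD3, and the narrowest that of SMARCA4 to SMARCA2.

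**Figure D3:**
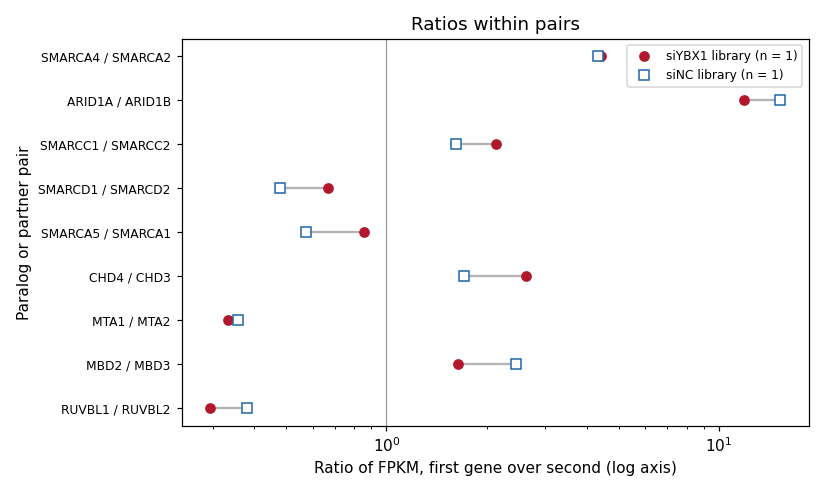
Ratio of the FPKM of the gene named first to that of the gene named next for 9 pairs, on a log axis, in siYBX1 cells (filled red circles) and siNC cells (open blue squares). No pair crosses a ratio of 1, and CHD4 over CHD3 lies at 2.63 in siYBX1 cells and 1.71 in siNC cells.

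A list of 54 other subunits and related Snf2 ATPases, outside the naming rule, gave a smaller shift. Of its 51 compared genes, 4 were at least 2-fold lower and 1 at least 2-fold higher, with a median of -0.15. That is 7.84% lower, near the 5.62% of all compared genes, and 1.96% higher, beside 7.20% of all. The lower ones were CHRAC1, a histone-fold subunit of the CHRAC complex (9.95 FPKM with siYBX1 against 25.8 FPKM with siNC, -1.29), the NuRD subunit CDK2AP1 (3.40 FPKM with siYBX1 against 9.42 FPKM with siNC, -1.24), the ATPase SRCAP (4.84 FPKM with siYBX1 against 12.2 FPKM with siNC, -1.18) and BICRAL of the non-canonical BAF complex (2.30 FPKM with siYBX1 against 5.81 FPKM with siNC, -1.04). The higher one was BCL7A, a BAF subunit (3.10 FPKM with siYBX1 against 0.987 FPKM with siNC, 1.04). BCL7A was just past the 2-fold line and, like ARID3A, passed the filter on low values through the siYBX1 library alone. Of the 51 genes, 32 lay below 0 and 19 above it. The deacetylase genes of NuRD stood on either side, HDAC1 at 43.4 FPKM with siYBX1 against 28.0 FPKM with siNC (0.61) and HDAC2 at 9.34 FPKM with siYBX1 against 12.8 FPKM with siNC (-0.41). The ISWI partners of the list had a median of -0.70 over 7 genes, with the chromatin protein DEK at 90.5 FPKM with siYBX1 against 172 FPKM with siNC (-0.92).

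Remodelling genes have long transcripts, and transcript length moved with the difference over all genes. The longest coding transcript had a median of 5791 bases over the remodelling genes and 3407 bases over all compared genes. In 10 equal bins of all genes by length, the median difference was 0.22 in the shortest and -0.23 in the longest, and 28 of the 55 remodelling genes were in the last 2 bins. In those bins the remodelling genes had medians of -0.78 and -0.66, beside -0.12 and -0.23 for all genes in them. Across the bins, 46 of the 55 lay below the median of all genes in their own bin, at a median distance of -0.39. Among the remodelling genes the difference correlated with log2 length at Pearson's r = -0.30 and Spearman's rho = -0.41 over 55 genes of the same pair of libraries. With the length trend of all genes removed, the median of the remodelling genes was -0.35. BPTF (-1.02) then remained at least 2-fold lower and ARID3A (2.15) higher, while the other 6 lay between -0.99 and -0.80. By that measure 1 of the 55 was lower, beside 5.41% of all genes, and 1 was higher, beside 6.59%, so the share of lower calls was no longer above that of all genes. Any further part of transcript length in these differences was not tested.

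**Figure D4:**
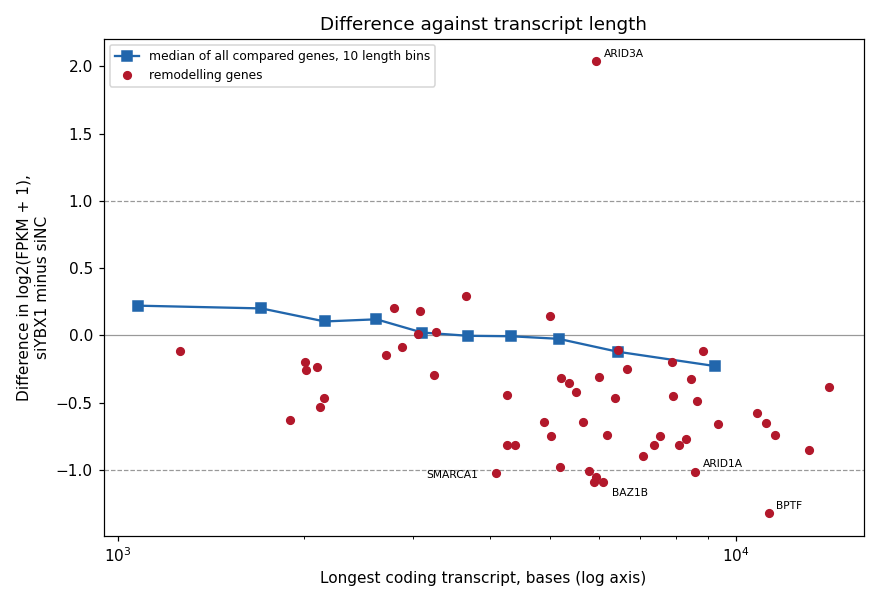
Difference in log2(FPKM + 1), siYBX1 minus siNC, against the longest coding transcript in bases (log axis), for the 55 compared remodelling genes (red) and as the median of all compared genes in 10 length bins (blue line). Of the 55 red points, 46 lie below the median of all genes in their own bin, with BPTF lowest at -1.32 and ARID3A highest at 2.04.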

How the data were processed

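RNA sequencing of 1 siYBX1 and 1 siNC library was analysed. Per the file headers, the authors deposited FPKM for each gene of each library. The tools StringTie 1.3.3, HISAT2 2.1.0 and cutadapt 1.17, and GRCh37 as the build, come from the submitters' processing notes, which give no roles. Annotation, strand use and the rule for listing a gene were not given in the sources used here. No counts accompany the FPKM, so no count test, interval or detection floor was possible, and reads of overlapping genes cannot be told apart. FPKM are scaled to length and library size.

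Differences are log2(FPKM + 1), siYBX1 minus siNC, for the 10548 of 11476 genes listed in both tables with a mean of at least 1 FPKM. A gene was called from a difference of 1 (2-fold). This scale understates the differences of low genes. Ratios use no pseudocount. Transcript length came from GENCODE 29 (99.6% of compared genes had one) and need not match the transcript expressed. A cubic B-spline with 5 degrees of freedom gave the length trend. Python 3.11.15, pandas 2.3.3 and patsy were used. One gene of the naming rule and a leukocyte marker are not reported here, and counts over the remodelling genes leave the gene out. The 56 genes, the role groups, the pairs and the list of other subunits were chosen with earlier results of these data known. The rule for naming took YBX1, every remodelling gene, and up to 4 other subunits each way past 2-fold. HDAC1, HDAC2, DEK, HELLS and HLTF were chosen after their values were seen. Alternatives were other pseudocounts, scalings, filters, listing rules, summed read-through genes and the removed length trend.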

Additional observations from a re-analysis of the deposited data

How the results depend on the processing

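No paired analysis was possible because each group is 1 library, and no library could be left out. All 10 alternatives were run, and the median difference of the remodelling genes stayed below 0 in each, between -0.63 and -0.33. As reported it was -0.47, with 7 genes at least 2-fold lower and 1 higher. At a pseudocount of 0.1 the median was -0.61, with 11 genes lower, beside 8.77% of all genes. At a pseudocount of 5 the median was -0.33, with 0 genes lower (1.98% of all genes) and 0 higher (314 of all 10548 genes). In that setting 1 other subunit was lower and 0 were higher. Scaled to the same total, the median was -0.60, with 9 remodelling genes lower and 1 higher, and 8 of the 51 other subunits lower and 0 higher. By that scaling 7.83% of all genes were lower, and 566 of 10548 were higher. Centred on the median of all genes it was -0.49, and without the filter on low values -0.47. At a mean of at least 5 FPKM it was -0.63, with 0 remodelling genes and 0 other subunits higher, since ARID3A and BCL7A have lower means. All 7 lower remodelling genes kept their call there, beside 6.88% of all genes, and 558 of 6507 genes were higher. With the length trend removed it was -0.35, with 1 remodelling gene lower (BPTF) and 1 higher, and 2 other subunits lower and 2 higher. Of all genes, 5.41% were then lower and 6.59% higher. ARID1A, ARID4A, ARID4B, BAZ1B, SMARCA1 and SMARCA4 lost their 2-fold call at the pseudocount of 5 and without the length trend, BPTF only at the pseudocount of 5, as did ARID3A (0.83). MBD2 passed 2-fold at a pseudocount of 0.1, at the same total and after centring, SMARCA2 at that pseudocount and at the same total, and BAZ2B and CHD9 at the pseudocount of 0.1. The cause of these changes was not tested. Without counts or replicates, differences of genes near 1 FPKM are the least certain.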

Other observations

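Grouped by domain rather than complex, the 14 compared genes with a bromodomain had a median difference of -0.70, and 3 of them, BPTF, BAZ1B and SMARCA4, were at least 2-fold lower. The 41 without one had a median of -0.44, with 4 lower and 1 higher. The 16 Snf2 family ATPases among the genes had a median of -0.70 with 2 lower, SMARCA1 and SMARCA4. The 39 other genes had a median of -0.42, with 5 lower and 1 higher. Of all compared genes, 5.62% were lower and 7.20% higher by the same measure. With the length trend removed, BPTF remained at least 2-fold lower, while SMARCA1 (-0.99), BAZ1B (-0.97) and SMARCA4 (-0.90) did not. The group medians were taken before the length trend was removed, and the part of transcript length in their contrast was not tested. These groupings were made after the values were seen, and the differences between them were not tested.

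The other Snf2 ATPases outside the naming rule, of which 8 were compared, had a median of -0.64. Of these, 6 lay below 0 and 2 above it, RAD54L (0.24) and ERCC6 (0.09), and none reached 2-fold. HELLS and HLTF, picked after their values were seen, were the lowest of the 8. HELLS, which is needed for DNA methylation, stood at 3.98 FPKM in the siYBX1 library and 8.48 FPKM in the siNC library (-0.93). HLTF, a fork remodeller, stood at 10.3 FPKM in siYBX1 cells against 20.4 FPKM in siNC cells (-0.92).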
